A study of Mus musculus with 6 samples.

Results

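The proteasome is the protease of the cytosol and nucleus that degrades proteins tagged with ubiquitin, and the messenger RNAs of its subunits were measured here in IL-10-producing and IL-10-negative lung group 2 innate lymphoid cells (ILC2s). The genes were chosen by name: every protein-coding row of the deposited gene table whose symbol begins with Psma, Psmb, Psmc, Psmd, Psme, Psmf or Psmg, which gave 50 of 21017 genes. A further 2 rows with such a symbol were processed pseudogenes and were left out. Of the 50 genes, 48 had enough counts to be tested. Psmc3ip, a recombination factor named only for binding Psmc3, meets the naming rule but is no proteasome subunit, and it is described apart.

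ILC2s are tissue lymphocytes without rearranged antigen receptors that make type 2 cytokines. Their source was the lung of C57BL/6J mice, 8 weeks old, carrying the IL-10GFP reporter allele, in which green fluorescence marks transcription of Il10. All mice had received 3 intranasal doses of 0.5 µg recombinant mouse IL-33, an alarmin that activates ILC2s. Sorted cells spent 48 h in culture with 10 ng/mL each of IL-4, IL-7 and IL-2 before a further sort into IL-10-producing cells (3 libraries) and IL-10-negative cells (3 libraries). Both groups therefore share the strain, the allele, the IL-33 treatment and the cytokine culture. The labels name the cells as freshly sorted, although the protocol describes the culture between the sorts. Whether the 3 libraries of a group are separate mice or cultures is not said, so each p-value reflects only how these libraries vary, and that variation may be technical.

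The core particle of the proteasome is a barrel of stacked rings, with alpha subunits on the outside that gate the entrance and beta subunits on the inside, of which the beta1, beta2 and beta5 subunits cut peptide bonds. In lymphoid cells and after interferon gamma, the catalytic subunits Psmb6, Psmb7 and Psmb5 are in part replaced by Psmb9, Psmb10 and Psmb8, which makes the immunoproteasome, known for cutting peptides that suit MHC class I. The regulatory particle caps the barrel: its lid and base bind ubiquitin chains, remove them and, with a ring of ATPases, unfold the substrate. Other caps (the Psme activators) open the barrel without ubiquitin, and dedicated chaperones assemble the core and the base.

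Library totals ran from 47012941 to 69511433 counts, and levels are given as CPM (counts relative to the library total) scaled by TMM factors between 0.986 and 1.011. Il10 itself, the gene behind the sort, averaged 848 ± 7.78 CPM in IL-10-producing cells, against 13.5 ± 0.608 CPM in IL-10-negative cells (mean ± SD of 3 libraries). All 14 ILC2 markers were expressed (4 rose and 7 fell), with summed levels of 16272 to 16430 CPM in IL-10-producing libraries, against 15767 to 15924 CPM in IL-10-negative libraries. Markers of other cells were mostly lower in IL-10-producing libraries. All 10 T cell markers fell, with sums of 18.5 to 19.6 CPM in IL-10-producing libraries, against 79.6 to 83.3 CPM in IL-10-negative libraries. All 7 mast cell and basophil markers fell (11.4 to 13.2 CPM in IL-10-producing libraries, against 62.4 to 67.7 CPM in IL-10-negative libraries), as did the 3 of 6 neutrophil markers that could be tested (sums over 6 markers 1.31 to 1.80 CPM in IL-10-producing libraries, against 34.4 to 37.9 CPM in IL-10-negative libraries). Nearly all of the neutrophil sum in IL-10-negative libraries was Mpo (mean 30.6 CPM) and Elane (4.15 CPM). S100a9, S100a8, Csf3r and Ly6g averaged only 0.46, 0.21, 0.22 and 0.07 CPM there. Of 6 B cell markers, 5 fell (16.1 to 17.6 CPM in IL-10-producing libraries, against 18.1 to 18.7 CPM in IL-10-negative libraries). Of 9 tested macrophage and dendritic cell markers, 5 fell and 1 rose (63.2 to 65.3 CPM in IL-10-producing libraries, against 69.5 to 71.7 CPM in IL-10-negative libraries), and of 3 epithelial and stromal markers with a row 1 rose and 1 fell (119 to 125 CPM in IL-10-producing libraries, against 103 to 111 CPM in IL-10-negative libraries). Sftpc, Scgb1a1 and Cdh5 have no row in the deposited counts and were not analysed here. Every gene with a row had at least 10 counts summed over the 6 libraries. The part other cells have in the differences below was not tested, and in bulk RNA fewer cells of a type and less RNA per cell cannot be told apart.

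Proteasome genes differed little between the populations. With edgeR's quasi-likelihood test, adjusted by Benjamini and Hochberg over 16654 genes at a threshold of 0.05, 11 of 48 rose in IL-10-producing cells (22.9%) and 2 fell (4.17%), while 35 did not pass. Over all genes tested the same test called 17.1% higher and 18.6% lower, 35.7% in all. Among the 7449 genes with a mean of at least 20 CPM, the range where most proteasome genes lie, it called 28.9% higher and 22.8% lower. The median log2 fold change, IL-10-producing over IL-10-negative, was 0.04 over the 48 genes and -0.00 over all genes tested. The values ran from -0.20 for Psmg4, which did not pass the test, to 0.21 for Psmg1. In 18 of 48 genes every IL-10-producing library lay above every IL-10-negative one, and in 5 every one lay below, against 21.7% and 23.5% of all genes tested (45.2% in all). Among the 7449 genes with a mean of at least 20 CPM, 2450 lay above and 1976 below in this way. Whether the 48 genes differ from genes of like level was not tested.

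The changes that passed the test were small. None of the 48 genes passed edgeR's test against a 1.2-fold change, which 7.91% of all genes passed. Every estimate of the 48 lay inside a 1.2-fold change, so 0 reached an unadjusted p under 0.05 in that test. Summed over the 50 genes, the level was 5071, 5033 and 5069 CPM in the IL-10-producing libraries, against 4960, 4923 and 4900 CPM in the IL-10-negative libraries. The sums did not overlap, and their mean was 2.64% higher in IL-10-producing cells. With TMM factors, most of that difference lay in the regulatory particle. Its 17 genes that meet the naming rule summed to 2395, 2390 and 2377 CPM in IL-10-producing libraries, against 2304, 2282 and 2285 CPM in IL-10-negative libraries, a difference of 4.23%. The 14 constitutive core genes summed to 1574, 1539.8 and 1576 CPM in IL-10-producing libraries, against 1544, 1540.3 and 1520.0 CPM in IL-10-negative libraries, and these sums overlapped. The 3 immunoproteasome genes summed to 317, 314 and 321 CPM in IL-10-producing libraries, against 329, 326 and 324 CPM in IL-10-negative libraries, 2.79% less and without overlap. These sums depend on the TMM factors. They were also taken relative to library totals alone, a step chosen for the sums after seeing the data. The sum over the 50 genes then overlapped between the groups and was 0.514% higher in IL-10-producing cells. On that scale the core sum also overlapped (-0.239%), while the regulatory particle (2.07%) and the immunoproteasome (-4.80%) stayed separated. Of the 13 calls, 7 held in every alternative tried other than the 1.2-fold test: Psmc1, Psmd1, Psmd6, Psmd13, Psmd14, Psma3 and Psma5. How the calls split between directions depended on scaling: with library totals alone in place of TMM factors, 8 genes rose and 7 fell, and the median over all genes tested moved to -0.03.

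**Figure D1:**
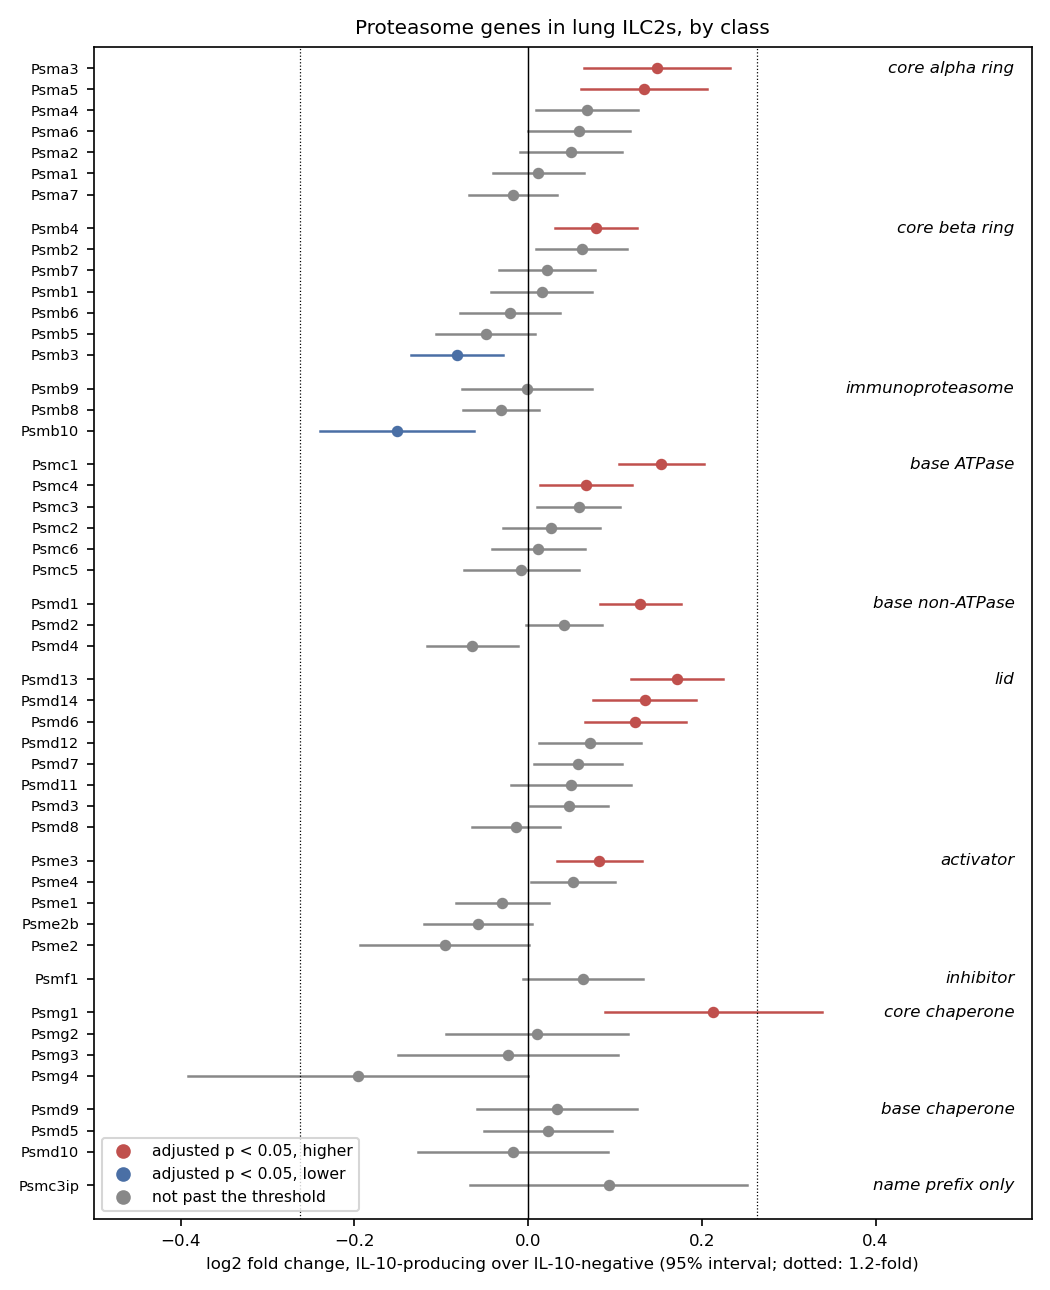
Log2 fold change of the 48 tested proteasome genes, IL-10-producing over IL-10-negative, grouped by class from the core to the chaperones; bars are 95% intervals of the edgeR fit over 3 libraries per group, colours mark genes past the adjusted threshold of 0.05, and dotted lines mark a 1.2-fold change. Of the 11 red points 2 lie in the alpha ring, 3 in the base, 3 in the lid and 1 each in the beta ring, the activators and the core chaperones, and the 2 blue points are Psmb3 and Psmb10; every point lies inside the dotted lines.

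The alpha ring of the core gave 2 genes that rose among 7, with a median log2 fold change of 0.06 and 6 of 7 values positive. For the alpha and beta rings together the median was 0.036. It was 0.005 with library totals alone and 0.0005 after correction for GC content and transcript length. Psma5 (chr3:108256926-108279974, plus strand), the alpha5 subunit, had 53.9, 55.7 and 57.5 CPM in IL-10-producing libraries, against 51.7, 50.7 and 49.9 CPM in IL-10-negative libraries. The groups did not overlap, and the gene rose (log2 fold change 0.13, SE 0.0351, edgeR adjusted p = 0.00401). Psma3 (chr12:70974621-70996347, plus strand), the alpha7 subunit, whose tail takes part in closing the gate, had 42.1, 44.3 and 44.98 CPM in IL-10-producing libraries, against 40.2, 40.6 and 37.7 CPM in IL-10-negative libraries. It too was separated between the groups and rose (log2 fold change 0.15, SE 0.0406, edgeR adjusted p = 0.00525). Both genes have processed pseudogenes of nearly the same sequence that took many of the counts, as described below. Psma4, the alpha3 subunit, was also separated, at 91.1, 87.1 and 89.4 CPM in IL-10-producing libraries, against 86.9, 84.03 and 84.3 CPM in IL-10-negative libraries, but did not pass (log2 fold change 0.07, edgeR adjusted p = 0.0669). Psma6, Psma2, Psma1 and Psma7, the other alpha subunits, had log2 fold changes of 0.06, 0.05, 0.01 and -0.02, did not pass and overlapped between the groups.

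Of the 7 constitutive beta subunits 1 rose and 1 fell, with a median log2 fold change of 0.02. Psmb4 (chr3:94884093-94886961, minus strand), the beta7 subunit, which has no catalytic site, had 180.3, 179 and 182 CPM in IL-10-producing libraries, against 174, 173 and 166 CPM in IL-10-negative libraries. All IL-10-producing libraries were above all IL-10-negative ones, and the gene rose (log2 fold change 0.08, SE 0.0230, edgeR adjusted p = 0.00926). That call was lost without IL-10-negative replicate 3 (adjusted p = 0.0834) and with library totals alone (adjusted p = 0.119). Psmb3 (chr11:97703399-97713500, plus strand), the beta3 subunit, likewise without a catalytic site, had 108, 108 and 109 CPM in IL-10-producing libraries, against 112, 118 and 114 CPM in IL-10-negative libraries. It fell (log2 fold change -0.08, SE 0.0256, edgeR adjusted p = 0.0138), with no overlap between the groups. Without IL-10-negative replicate 2, the highest library, its adjusted p was 0.0951. Psmb2, the beta4 subunit, had 107, 106 and 104 CPM in IL-10-producing libraries, against 102, 100.1 and 101 CPM in IL-10-negative libraries. These groups did not overlap, yet the gene did not pass (log2 fold change 0.06, edgeR adjusted p = 0.0636). Psmb1, the beta6 subunit, averaged 162 ± 7.62 CPM in IL-10-producing cells, against 160.0 ± 3.201 CPM in IL-10-negative cells (mean ± SD of 3 libraries) and did not pass.

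Of the 3 immunoproteasome genes 1 fell, Psmb10, and the other two did not pass. Psmb10 (chr8:105935735-105938444, minus strand), the inducible beta2 subunit, had 36.7, 35.8 and 34.8 CPM in IL-10-producing libraries, against 37.6, 40.1 and 41.5 CPM in IL-10-negative libraries. The groups did not overlap, though the nearest libraries lay close together, and the gene fell (log2 fold change -0.15, SE 0.0427, 95% interval -0.24 to -0.06, edgeR adjusted p = 0.00688). Without IL-10-negative replicate 3, the highest library, the log2 fold change was -0.12 and the adjusted p was 0.0569. Psmb8 (chr17:34197721-34201454, plus strand), the inducible beta5 subunit with chymotrypsin-like activity, had 237, 234 and 242 CPM in IL-10-producing libraries, against 247, 243 and 239 CPM in IL-10-negative libraries. Those groups overlapped, and the 95% interval of the log2 fold change ran from -0.08 to 0.01 (edgeR adjusted p = 0.286). Psmb8 passed as lower only with library totals alone in place of TMM factors (adjusted p = 0.0310). Psmb9 (chr17:34181988-34187764, minus strand), the inducible beta1 subunit, had 43.96, 43.9 and 43.6 CPM in IL-10-producing libraries, against 44.8, 43.2 and 43.7 CPM in IL-10-negative libraries. Its values overlapped, and the interval of its log2 fold change, -0.08 to 0.07, spans 0 (edgeR adjusted p = 0.985).

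The constitutive counterparts did not pass the test in the TMM-scaled fit. Psmb5 (chr14:54614119-54618022, minus strand), which carries the constitutive chymotrypsin-like site, had 110.2, 110.0 and 103 CPM in IL-10-producing libraries, against 111, 112 and 111 CPM in IL-10-negative libraries. IL-10-producing replicate 3 was the lowest of the 6, and the groups did not overlap (log2 fold change -0.05, edgeR adjusted p = 0.186). Without that library the log2 fold change was -0.02. Psmb5 passed as lower with library totals alone (log2 fold change -0.08, adjusted p = 0.0240) and after correction for GC content and transcript length (log2 fold change -0.08, adjusted p = 0.0397). Psmb6 (chr11:70525367-70527858, plus strand), the caspase-like beta1 subunit, had 81.4, 81.3 and 81.1 CPM in IL-10-producing libraries, against 83.6, 80.9 and 82.9 CPM in IL-10-negative libraries (log2 fold change -0.02, edgeR adjusted p = 0.612). Psmb7 (chr2:38588036-38644087, minus strand), the trypsin-like beta2 subunit, had 89.7, 92.5 and 90.6 CPM in IL-10-producing libraries, against 88.8, 90.2 and 89.8 CPM in IL-10-negative libraries (log2 fold change 0.02, edgeR adjusted p = 0.581). The groups overlapped for both.

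Per transcript length, the inducible subunit made up most of 1 catalytic pair and the smaller share of the other two. On the scale of CPM per kilobase, Psmb8 held 54.2%, 54.0% and 56.6% of the beta5 pair in IL-10-producing libraries, against 55.1%, 54.5% and 54.3% in IL-10-negative libraries, and these shares overlapped. Psmb9 held 24.1 ± 0.0626% of the beta1 pair in IL-10-producing and 23.9 ± 0.141% in IL-10-negative libraries (SD, n = 3 each). The beta1 shares did not overlap, with every IL-10-producing library slightly above every IL-10-negative one. Psmb10 held 26.6%, 25.5% and 25.4% of the beta2 pair in IL-10-producing libraries, against 27.2%, 28.2% and 29.0% in IL-10-negative libraries. These shares lay apart in the other direction, and their means differed by -2.34 percentage points. These shares use the length of the longest annotated protein-coding transcript of each gene, such as 1628 bases for Psmb8 and 899 for Psmb5. They depend on that choice and are a description with no test.

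**Figure D2:**
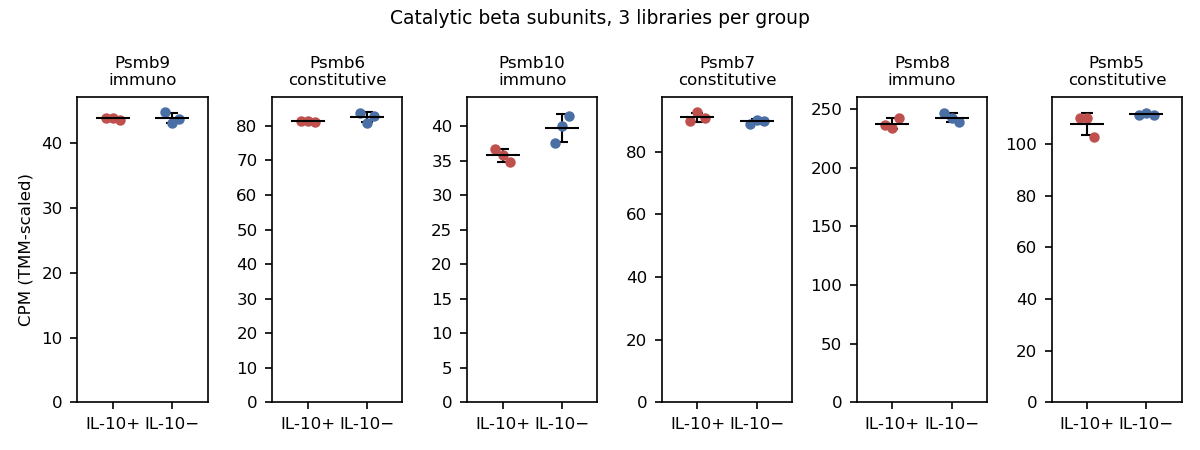
TMM-scaled CPM of the 6 catalytic subunits in each library, as immunoproteasome and constitutive neighbours of the beta1, beta2 and beta5 pairs, with each panel on its own axis from 0; points are libraries, bars the mean ± SD, with IL-10-producing libraries (IL-10+) left of IL-10-negative ones (IL-10−). The groups lie apart for Psmb10 and, by a smaller step, for Psmb5, and overlap for Psmb9, Psmb6, Psmb7 and Psmb8.

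Proteasome genes are known to be induced together through the antioxidant response element, which the transcription factor Nfe2l1 binds when proteasome activity is low, while the inducible subunits respond to interferon through gamma-activated sites and interferon-stimulated response elements. RefSeq windows from 250 bases before to 50 bases after an annotated start (build GRCm38.p6) were found for 42 of the 50 genes. Windows of 4 catalytic genes are shown because they set both members of the beta5 and the beta1 pair side by side; capitals mark the 1 match to a searched motif in each, and each is written 5′ to 3′ on the strand of its gene.
Psmb5, chr14:54617946-54618245, minus strand: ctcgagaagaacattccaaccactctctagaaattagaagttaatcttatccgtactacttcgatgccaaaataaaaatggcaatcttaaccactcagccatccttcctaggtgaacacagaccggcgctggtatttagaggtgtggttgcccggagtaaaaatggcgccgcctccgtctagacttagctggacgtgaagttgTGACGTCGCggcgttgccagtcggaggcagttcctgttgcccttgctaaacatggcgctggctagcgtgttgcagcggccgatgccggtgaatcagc
Psmb8, chr17:34197945-34198244, plus strand: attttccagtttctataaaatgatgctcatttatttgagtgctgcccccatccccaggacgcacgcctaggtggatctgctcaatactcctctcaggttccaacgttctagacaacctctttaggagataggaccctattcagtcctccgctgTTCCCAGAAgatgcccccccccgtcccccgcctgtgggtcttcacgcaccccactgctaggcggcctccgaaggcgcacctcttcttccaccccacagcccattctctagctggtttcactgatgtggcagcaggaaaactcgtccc
Psmb6, chr11:70525107-70525406, plus strand: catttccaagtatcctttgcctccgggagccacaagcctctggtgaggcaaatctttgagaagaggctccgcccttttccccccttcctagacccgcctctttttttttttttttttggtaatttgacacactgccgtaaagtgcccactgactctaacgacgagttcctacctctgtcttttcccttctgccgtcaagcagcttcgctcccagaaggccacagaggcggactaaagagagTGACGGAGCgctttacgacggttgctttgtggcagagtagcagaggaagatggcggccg
Psmb9, chr17:34187281-34187580, minus strand: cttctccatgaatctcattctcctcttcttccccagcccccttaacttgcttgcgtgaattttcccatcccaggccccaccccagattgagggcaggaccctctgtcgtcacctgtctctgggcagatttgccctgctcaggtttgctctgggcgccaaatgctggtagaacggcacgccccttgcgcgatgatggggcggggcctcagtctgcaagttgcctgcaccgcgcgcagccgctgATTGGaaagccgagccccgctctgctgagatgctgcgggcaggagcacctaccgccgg

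Both constitutive windows hold the core of the antioxidant response element, TGACNNNGC: TGACGTCGC at -47 in Psmb5 and TGACGGAGC at -9 in Psmb6, counted from the start. The Psmb8 window holds a gamma-activated site, TTCNNNGAA, as TTCCCAGAA at -97, and the Psmb9 window holds a CCAAT box on the other strand at -8, read as ATTGG. The RefSeq starts of Psmb8 and Psmb9 lie inside the genes as the deposited table draws them. Searched on both strands, TGACNNNGC was in the windows of 6 of 42 proteasome genes (Psmb5, Psmb6, Psmc6, Psmd12, Psmd9 and Psme4), and in 12.4% of 32851 RefSeq windows of this length. None of those 6 genes passed the expression test. TTCNNNGAA was in 3 of 42 (8.3% of all windows), the interferon-stimulated response element (TTTC, any 2 bases, TTTC) in 5 of 42 (3.44%) and CCAAT in 15 of 42 (37.4%). Of the 11 genes that rose, 4 held CCAAT and 1 TTCNNNGAA, and of the 2 that fell, Psmb3 held CCAAT and the interferon-stimulated response element while the Psmb10 window held no match. No 2 matches to different motifs overlapped in these windows. A match says only that the letters are there.

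The base of the regulatory particle, which holds the unfolding ATPases and the ubiquitin receptors, gave 3 genes that rose among 9 that meet the naming rule. Of the 6 ATPases 2 rose, with a median log2 fold change of 0.04. Psmc1 (chr12:100110154-100123405, plus strand), an ATPase whose tail helps to open the core gate, had 165, 170.1 and 169 CPM in IL-10-producing libraries, against 155, 150.2 and 149 CPM in IL-10-negative libraries. The lowest IL-10-producing library stood clear of the highest IL-10-negative one, and the gene rose (log2 fold change 0.15, SE 0.0237, edgeR adjusted p = 1.04e-05). Psmc4 had 107, 106 and 107 CPM in IL-10-producing libraries, against 103, 99.7 and 103 CPM in IL-10-negative libraries, and rose without overlap (log2 fold change 0.07, edgeR adjusted p = 0.0433). This call was close to the threshold and was lost whenever any 1 of the 6 libraries was left out (adjusted p 0.0566 to 0.178). Psmc3 was also separated, at 185, 179 and 176 CPM in IL-10-producing libraries, against 172, 174 and 172 CPM in IL-10-negative libraries, and just missed the threshold (log2 fold change 0.06, edgeR adjusted p = 0.0523). Psmc2, Psmc6 and Psmc5 had log2 fold changes of 0.03, 0.01 and -0.01 and did not pass.

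Among the other 3 base subunits that meet the naming rule 1 rose. Psmd1 (chr1:86064387-86139151, plus strand), the large scaffold of the base, had 176, 182 and 176 CPM in IL-10-producing libraries, against 164, 163 and 162 CPM in IL-10-negative libraries. The groups were well apart (log2 fold change 0.13, SE 0.0225, edgeR adjusted p = 5.05e-05). Psmd2, the second large scaffold and a docking site for ubiquitin receptors, had 289, 286 and 280.3 CPM in IL-10-producing libraries, against 275, 272 and 284 CPM in IL-10-negative libraries. It overlapped between the groups and did not pass (log2 fold change 0.04, edgeR adjusted p = 0.135). Psmd4, a ubiquitin receptor, ran the other way, at 116.5, 114 and 114 CPM in IL-10-producing libraries, against 122, 120.3 and 117.2 CPM in IL-10-negative libraries. Its groups did not overlap, and it just missed the threshold (log2 fold change -0.06, edgeR adjusted p = 0.0512); it passed as lower in 4 alternatives, among them without IL-10-negative replicate 3 (adjusted p = 0.0328).

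The lid, which removes ubiquitin chains before the substrate is threaded, gave 3 genes that rose among 8 that meet the naming rule (37.5%). This share was 33.3% for the ATPases of the base, and 17.1% for all genes tested. Among genes with a mean of at least 20 CPM it was 28.9%. The median log2 fold change of the lid genes was 0.06, with 7 of 8 values positive. Psmd13 (chr7:140881968-140898643, plus strand), a structural lid subunit, had 137, 131 and 131 CPM in IL-10-producing libraries, against 119, 119.7 and 116 CPM in IL-10-negative libraries. This was the smallest adjusted p of the 48 genes (log2 fold change 0.17, SE 0.0256, edgeR adjusted p = 6.65e-06), and the groups were separated by more than the spread within either. Psmd14 (chr2:61711694-61800376, plus strand), the metalloprotease that cuts ubiquitin chains from the substrate, had 90.4, 90.3 and 88.5 CPM in IL-10-producing libraries, against 81.9, 84.1 and 79.4 CPM in IL-10-negative libraries. It rose (log2 fold change 0.13, SE 0.0288, edgeR adjusted p = 0.000573), with no overlap. Psmd6 (chr14:14112174-14120984, minus strand), another structural lid subunit, had 92.8, 94.1 and 91.1 CPM in IL-10-producing libraries, against 87.7, 83.6 and 84.2 CPM in IL-10-negative libraries, and rose likewise (log2 fold change 0.12, SE 0.0283, edgeR adjusted p = 0.00112). Psmd12 and Psmd7, the inactive partner of Psmd14, were separated between the groups but did not pass (log2 fold changes 0.07 and 0.06, edgeR adjusted p 0.0541 and 0.0753). Psmd3, Psmd11 and Psmd8 overlapped, with log2 fold changes of 0.05, 0.05 and -0.01. Whether the lid differed from the other classes was not tested.

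The activators that cap the core without ubiquitin gave 1 gene that rose among 5. Psme3 (chr11:101316213-101323537, plus strand), the nuclear activator PA28 gamma, had 172, 182 and 178 CPM in IL-10-producing libraries, against 169, 168 and 166 CPM in IL-10-negative libraries. It rose without overlap (log2 fold change 0.08, SE 0.0235, edgeR adjusted p = 0.00747), a call lost without IL-10-producing replicate 2 (adjusted p = 0.0579) and with library totals alone (adjusted p = 0.0910). The interferon-inducible partners Psme1 and Psme2, which form the cytosolic PA28 ring, did not pass the test. Psme1 had 96.3, 97.1 and 97.8 CPM in IL-10-producing libraries, against 100.3, 99.5 and 97.4 CPM in IL-10-negative libraries, with overlap (log2 fold change -0.03, edgeR adjusted p = 0.416). Psme2 had 23.2, 24.5 and 24.5 CPM in IL-10-producing libraries, against 26.03, 25.8 and 25.4 CPM in IL-10-negative libraries. Its groups did not overlap, and it did not pass (log2 fold change -0.10, edgeR adjusted p = 0.120). Psme2b, a copy of Psme2, had 94.9, 94.05 and 95.6 CPM in IL-10-producing libraries, against 102, 93.7 and 101 CPM in IL-10-negative libraries, with overlap (log2 fold change -0.06, edgeR adjusted p = 0.144). Psme4, the large nuclear activator PA200, had 149, 152 and 153 CPM in IL-10-producing libraries, against 143, 147 and 148 CPM in IL-10-negative libraries, separated but not past the threshold (log2 fold change 0.05, edgeR adjusted p = 0.0923). Psmf1, the inhibitor PI31, had 57.5, 55.3 and 55.99 CPM in IL-10-producing libraries, against 54.9, 53.5 and 53.2 CPM in IL-10-negative libraries. These did not overlap either, and the gene did not pass (log2 fold change 0.06, edgeR adjusted p = 0.152).

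Of the 7 assembly chaperones 1 rose. Psmg1 (chr16:95979954-95990903, minus strand), which with Psmg2 guides the alpha ring together, had 17.03, 17 and 18.1 CPM in IL-10-producing libraries, against 13.96, 15.9 and 14.98 CPM in IL-10-negative libraries. It rose by the largest amount of the 48 genes (log2 fold change 0.21, SE 0.0606, edgeR adjusted p = 0.00704). Its lowest library was IL-10-negative replicate 1, without which the adjusted p was 0.0508. Its partner Psmg2 averaged 24.3 ± 0.757 CPM in IL-10-producing cells, against 24.1 ± 1.295 CPM in IL-10-negative cells (mean ± SD of 3 libraries), with overlap. In the second chaperone pair, Psmg3 had 17.7, 16.5 and 17.7 CPM in IL-10-producing libraries, against 19.2, 16.7 and 16.9 CPM in IL-10-negative libraries, with a log2 fold change of -0.02. Psmg4 had 5.61, 5.41 and 6.25 CPM in IL-10-producing libraries, against 6.76, 6.93 and 6.02 CPM in IL-10-negative libraries. It had the fewest counts of the tested genes and the most negative log2 fold change, -0.20 with an SE of 0.0947, but its groups overlapped (edgeR adjusted p = 0.116). The base chaperones help to build the ATPase ring. Psmd9 had 31.6, 30.9 and 32.2 CPM in IL-10-producing libraries, against 31.6, 31.7 and 29.2 CPM in IL-10-negative libraries (log2 fold change 0.03). Psmd5 had 57.6, 57.4 and 56.8 CPM in IL-10-producing libraries, against 59.4, 55.2 and 54.6 CPM in IL-10-negative libraries (log2 fold change 0.02). Psmd10, also known as gankyrin, had 23.6, 21.1 and 21.4 CPM in IL-10-producing libraries, against 21.8, 22.8 and 22.3 CPM in IL-10-negative libraries (log2 fold change -0.02). All of these 3 overlapped between the groups and did not pass, with SEs between 0.0356 and 0.0528.

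Tissue-specific core subunits were barely detected. Psma8, the alpha subunit of testis, had 0, 0 and 1 counts in IL-10-producing and 2, 9 and 5 counts in IL-10-negative libraries. Psmb11, the beta5 subunit of thymic epithelium, had 0, 2 and 1 counts in IL-10-producing and 1, 1 and 5 counts in IL-10-negative libraries. Both were too low to test. Psmc3ip had 13.9, 12 and 12.3 CPM in IL-10-producing libraries, against 10.5, 12.8 and 12.4 CPM in IL-10-negative libraries, with overlap (log2 fold change 0.09, edgeR adjusted p = 0.390); of its exon bases, 21.2% are shared with Mlx on the other strand.

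Levels between subunits varied far more than between the populations. Per kilobase of transcript, the 14 constitutive core genes spanned 15.4 CPM per kilobase in IL-10-producing and 13.9 in IL-10-negative libraries for Psma3 to 153 in IL-10-producing libraries for Psmb4 and 149.8 in IL-10-negative libraries for Psmb3. Among the immunoproteasome genes Psmb8 stood highest, with 146 CPM per kilobase in IL-10-producing and 149 in IL-10-negative libraries. Psmb9 had 32.4 in IL-10-producing and 32.5 in IL-10-negative libraries, and Psmb10 had 27.3 in IL-10-producing and 30.3 in IL-10-negative libraries, on the same scale. The regulatory particle ran from Psmd11, at 28.1 CPM per kilobase in IL-10-producing and 27.2 in IL-10-negative libraries, to Psmc1, at 106 in IL-10-producing and 95.1 in IL-10-negative libraries. The assembly chaperones lay below nearly all subunits of the particle. They ran from 10.4 CPM per kilobase (Psmg4) to 19.6 (Psmg3) in IL-10-producing libraries, and the inhibitor Psmf1 lay among them at 14.8. Subunits that stand in the particle in equal number were not equal in RNA level on this scale, and the lowest alpha ring values belong to genes with near-identical copies. The scale also rests on the transcript length used, such as 2846 bases for Psma3 and 1042 for Psma6.

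**Figure D3:**
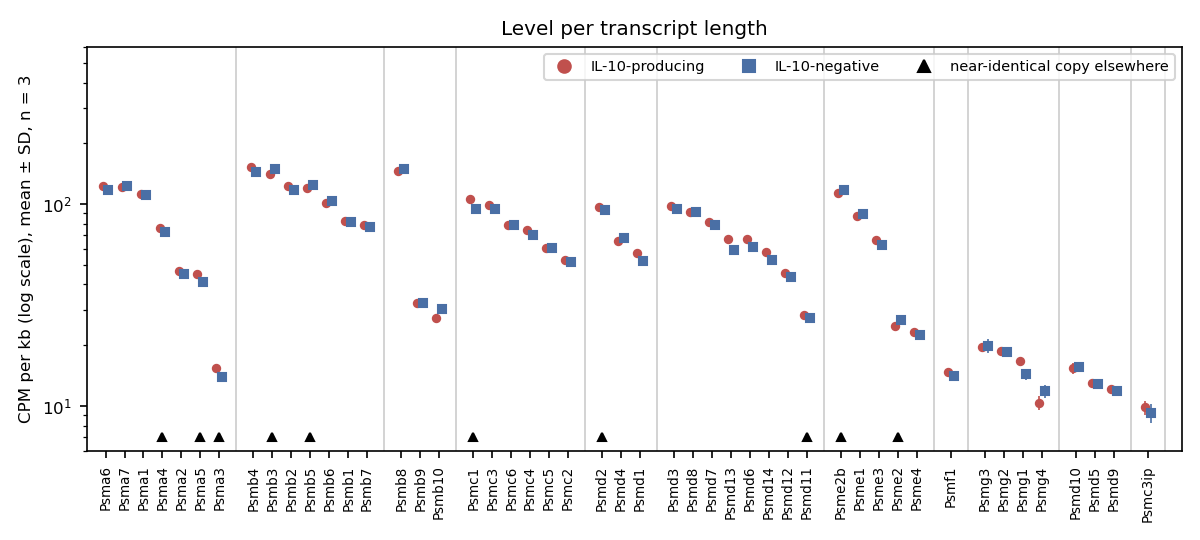
Mean level per kilobase of transcript on a log axis, with SD over 3 libraries, for the 48 tested genes in the class order of the fold change plot and falling within each class; triangles mark genes with a near-identical copy elsewhere in the genome. Differences between genes of a class reach several fold, while the IL-10-producing and IL-10-negative marks of a gene nearly coincide.

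For several genes the counts depend on how reads were shared with copies. Of the 50 genes, 10 have at least 95% identity over at least 200 bases with another annotated gene elsewhere. Psma3 had 13990 counts over the 6 libraries, while its 3 processed pseudogenes took 69.6% of the joint counts; the most counted, Gm13835 on chromosome 6, is identical to it over 665 bases and had 31473 counts. With the copies added, Psma3 had 140.5, 139.9 and 150.1 CPM in IL-10-producing libraries, against 131, 132 and 129.6 CPM in IL-10-negative libraries, still without overlap. Its log2 fold change was then 0.13 (edgeR adjusted p = 0.000324). For Psma5 the copies took 54.6%, and with them added the log2 fold change was 0.12 (edgeR adjusted p = 0.00116). Psme2 and its retrocopy Psme2b on chromosome 11 are 99.4% identical over 794 bases, and Psme2b took 79.5% of their counts; together they had a log2 fold change of -0.07 (edgeR adjusted p = 0.0602). The copies' share was 31.3% for Psmd11 and 10.6% or less for Psmb5, Psma4, Psmb3, Psmd2 and Psmc1. Adding the copies left the same 13 calls. The source of the reads assigned to pseudogenes cannot be told from counts per gene. In addition, 15 of the 50 genes share exon bases with another gene, 12 of them with a gene on the opposite strand, such as Psmd13 with Sirt3 (10.1% of its exon bases), Psmb7 with Nek6 (11.8%) and Psmb9 with Tap1 (5.86%). The sources used here do not give whether strand was used in counting, so these values are uncertain.

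**Figure D4:**
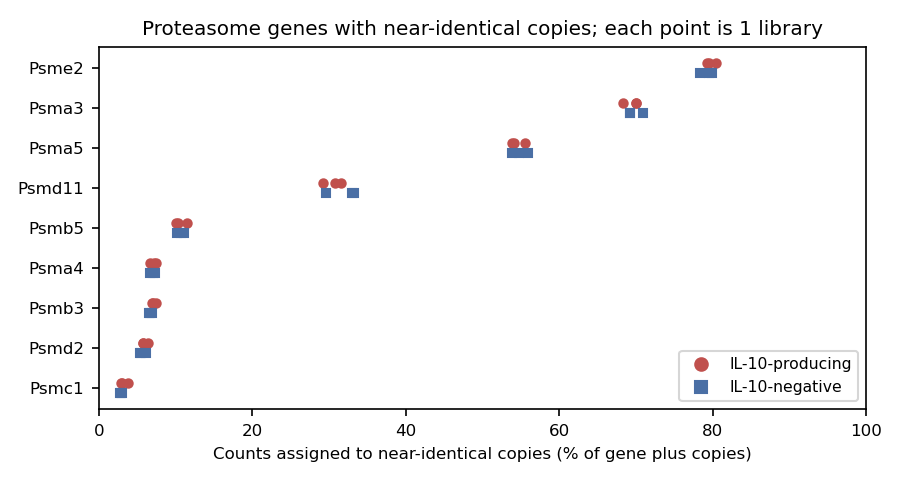
Share of the counts of a gene and its near-identical copies that was assigned to the copies, in each library (1 point per library, IL-10-producing above IL-10-negative), for 9 genes. The share runs from 79.5% for Psme2, whose copy is Psme2b, to 3.1% for Psmc1 and differs little between libraries of either group.

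Genes that work beside the proteasome were read from 3 lists. For comparison, 17.1% of all genes tested were called higher and 18.6% lower. Among genes with a mean of at least 20 CPM these shares were 28.9% and 22.8%. Whether a list differs from these shares was not tested. Of 20 tested partners, 21 being listed (ubiquitin shuttles, deubiquitinases, the assembly factor Pomp and regulators) 6 rose and 3 fell, with a median log2 fold change of 0.01. Nfe2l1, a transcription factor that induces proteasome genes, fell: it averaged 160.4 ± 5.63 CPM in IL-10-producing libraries, against 201 ± 2.08 CPM in IL-10-negative ones (log2 fold change -0.33, edgeR adjusted p = 5.89e-11). Usp14 and Uchl5, deubiquitinases that sit on the regulatory particle, rose. Usp14 averaged 78.4 ± 2.06 CPM in IL-10-producing libraries, against 67.1 ± 3.19 CPM in IL-10-negative ones (log2 fold change 0.22, edgeR adjusted p = 8.44e-06). Uchl5 averaged 70.1 ± 0.556 CPM in IL-10-producing libraries, against 61.2 ± 1.12 CPM in IL-10-negative ones (log2 fold change 0.19, edgeR adjusted p = 1.32e-05). Rad23b, which carries ubiquitinated proteins to the particle, rose as well: it averaged 201 ± 5.02 CPM in IL-10-producing libraries, against 183 ± 2.74 CPM in IL-10-negative ones (log2 fold change 0.13, edgeR adjusted p = 5.84e-05). Pomp, which helps to close the core, rose (log2 fold change 0.13), while Adrm1, the ubiquitin receptor that anchors Uchl5, and Zfand5, a proteasome activator, fell (log2 fold changes -0.16 and -0.15). Adrm1 is a subunit of the base that does not meet the naming rule, so it is not among the 17 regulatory particle genes.

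Of 16 genes that supply ubiquitin or charge and transfer it, 8 rose and 1 fell, with a median log2 fold change of 0.08. Beside this list and the next, 17.1% of all genes tested were called higher and 18.6% lower. At a mean of at least 20 CPM, where nearly all of these genes lie, the shares were 28.9% and 22.8%. Both activating enzymes, which charge ubiquitin for transfer, rose. Uba1 averaged 578 ± 14.3 CPM in IL-10-producing libraries, against 530.0 ± 10.7 CPM in IL-10-negative ones (log2 fold change 0.13, edgeR adjusted p = 2e-05). Uba6 averaged 49.3 ± 0.198 CPM in IL-10-producing libraries, against 42.4 ± 1.55 CPM in IL-10-negative ones (log2 fold change 0.22, edgeR adjusted p = 3.58e-05). Ube2c and Ube2s, the conjugating enzymes of the mitotic ubiquitin ligase, rose too. Ube2c averaged 154 ± 1.11 CPM in IL-10-producing libraries, against 120.2 ± 1.098 CPM in IL-10-negative ones (log2 fold change 0.36, edgeR adjusted p = 3.65e-12). Ube2s averaged 206 ± 4.88 CPM in IL-10-producing libraries, against 179 ± 2.55 CPM in IL-10-negative ones (log2 fold change 0.21, edgeR adjusted p = 4.88e-08). Ubb and Rps27a, which encode ubiquitin, did not pass, with log2 fold changes of 0.03 and 0.05. Of 14 genes that load proteasome products on MHC class I or switch on its genes, 2 rose and 7 fell, with a median log2 fold change of -0.07. The heavy chains H2-K1 and H2-D1 and their light chain B2m fell. H2-K1 averaged 1355 ± 13.7 CPM in IL-10-producing libraries, against 1634 ± 10.8 CPM in IL-10-negative ones (log2 fold change -0.27, edgeR adjusted p = 6.73e-13). H2-D1 averaged 1983 ± 15.6 CPM in IL-10-producing libraries, against 2274 ± 20.97 CPM in IL-10-negative ones (log2 fold change -0.20, edgeR adjusted p = 1.27e-10). B2m averaged 1604 ± 20.8 CPM in IL-10-producing libraries, against 1865 ± 5.34 CPM in IL-10-negative ones (log2 fold change -0.22, edgeR adjusted p = 3.46e-11). Class I heavy chains are close in sequence, so counts may be shared between them and with other class I genes. Calr, a chaperone of the heavy chain, rose: it averaged 1197 ± 27.3 CPM in IL-10-producing libraries, against 1074 ± 9.87 CPM in IL-10-negative ones (log2 fold change 0.16, edgeR adjusted p = 1.02e-07). Tap1 and Tap2, which carry peptides into the endoplasmic reticulum and lie beside Psmb8 and Psmb9 on chromosome 17, did not pass (log2 fold changes 0.06 and -0.01), nor did Nlrc5, the activator of class I genes (0.02), while Irf1, a transcription factor of the interferon response, fell (log2 fold change -0.19).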

How the data were processed

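Sorted ILC2s gave 6 RNA libraries, from 10 ng of total RNA each, per the labels' protocols. The tools were Partek, STAR 2.5.3a and bcl2fastq 2.17.1.14 on build mm10, per the submitters' processing notes; the annotation and the use of strand are not given in the sources used here. The authors deposited estimated counts per gene, of which 50.4% were not whole, and a normalized signal table in which every value equals the estimated count plus 1 times 1 factor per library (within 1%).

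Estimated counts were rounded, and edgeR 4.0.16 in R 4.3.3 compared the groups by its quasi-likelihood test with TMM factors, group as the only term and filterByExpr defaults (minimum count 10, minimum total 15), which kept 16654 genes. Benjamini-Hochberg adjustment ran over all of them (threshold 0.05), and every adjusted p comes from this test unless another is named. Alternatives used DESeq2 1.42.0, limma 3.58.1 and a GC and length correction with mgcv 1.9.3. No pair of libraries within a group agreed within sampling noise (chi-square per gene 2.91 to 11.3), so all 6 were used. Near-identical copies were found with blastn 2.17.0 on GENCODE M21 transcripts, and promoter windows are RefSeq's. Lengths are those of 1 GENCODE M21 transcript per gene, the longest protein-coding one where there is one. Precision is limited by 3 libraries per group and, for genes with few counts, by counting error.

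The genes, classes and lists were chosen with earlier results of these data known. Values in every library are given for the catalytic subunits, the activators, the inhibitor, Psmc3ip and, in every other class, the 3 tested genes with the smallest p, and means for the 4 genes of each list with the smallest p; other genes are named with a mean or a fold change, and some list genes are not reported here by name.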

Additional observations from a re-analysis of the deposited data

How the results depend on the processing

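The 18 alternatives changed the scaling, the filter on low counts, the test, the design, the correction for gene properties and the libraries used; adding near-identical copies was chosen after seeing the data. All 13 called proteasome genes kept their direction in all 18, and 7 kept their call in each one but the 1.2-fold test. Under that test 1317 genes passed, fewer by the construction of a stricter test. Among them were 0 proteasome genes, whose estimates all lay inside a 1.2-fold change. After correction for GC content and transcript length 22 proteasome genes passed, 14 higher and 8 lower, and the cause was not tested. Leaving out each library in turn gave 5223 to 5491 changed genes and 11 to 15 changed proteasome genes. Psmc4 kept its call in 6 of 18 alternatives. With library totals alone, 36.8% of called genes were higher, against 47.8% with TMM factors, and 8 proteasome genes were higher and 7 lower. DESeq2 called 10 proteasome genes higher and 2 lower, limma-voom 11 and 2, and limma on the authors' normalized values 14 and 2 (pseudocount 1) or 13 and 2 (pseudocount 0.1). The titles number the libraries of both groups 1 to 3. With the replicate number as a block, 5817 genes and 12 proteasome genes changed, all 12 among the 13. Same-numbered libraries did not deviate together (correlations -0.0402 to -0.0177 over 10400 genes). With so few libraries per group, this cannot decide whether same-numbered libraries share a mouse or culture, which the labels do not say. For single genes and classes, 47 values moved, 41 lost and 23 gained a call, and 1005 stayed on the same side of the threshold. Among these were 12 sign changes, in Psmb7, Psmb9, Psmd5, Psmd9, Psmd10 and Psmg3, whose values passed in neither setting (Psmb7 had -0.01 with library totals alone, against 0.02 with TMM factors); among the genes given in every library no value past the threshold changed sign. Outside them Psmc6 passed as lower after the GC and length correction (log2 fold change -0.08). Depth limits the low-count chaperones most: the SE of Psmg4 was 0.0947, against 0.0212 for Psmd2.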
